A study of Mus musculus with 6 samples.

Results

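The genes of the collagen chains were examined in livers of Mir137-/- mice and of Mir137+/+ mice at postnatal day 14. A gene was taken as a member when a probe set of the array was annotated to exactly 1 symbol, and that symbol was Col followed by a number, the letter a and a number. Of 18193 genes with such a probe set, 42 were collagen chains, and 11 of them were fibrillar, 6 were of the basement membrane (type IV) and 25 belonged to other types. Where a gene had several probe sets, the brightest on average over all 6 arrays stood for it, whatever the genotypes showed. The 3 Mir137-/- mice carried a germline deletion of the miR-137 gene in every cell. The deletion was made by Cre recombination in embryonic stem cells of a strain other than C57BL/6. These cells were injected into C57BL/6 blastocysts, and the chimeras were crossed with C57BL/6 mice. The 3 Mir137+/+ mice were wild-type animals of the same line, bred from heterozygous parents. The methods state that most experiments used offspring of first-generation heterozygous littermates. The genotypes can thus also differ in strain sequence around Mir137, and single mice can differ in it elsewhere in the genome, at other collagen genes too. Neither was checked on these arrays. Among the chains, Col11a1, Col24a1 and Col25a1 lie on the same chromosome as Mir137. Of these Col11a1 lies nearest to it, at chr3:114030479-114220756 in GRCm38.p6. No mouse was treated, the methods name male mice, and each array held total liver RNA of 1 mouse on a whole-genome Affymetrix mouse expression array. Because the deletion was not limited to the liver, the comparison covers loss of miR-137 in the whole body of a growth-retarded mouse. Mir137 itself was not among the genes measured, so the targeted gene was not checked on these arrays. The mature RNAs cut from its hairpin are shown because they are what the Mir137-/- mice lack, as listed by RefSeq for GRCm38.p6, 5′ to 3′, with the seed (bases 2 to 8) in capitals. The 3p strand lies at chr3:118433901-118433923 and the 5p strand at chr3:118433865-118433887, both on the plus strand.
mmu-miR-137-3p: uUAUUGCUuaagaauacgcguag
mmu-miR-137-5p: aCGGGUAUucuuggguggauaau

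Collagens are secreted proteins in which chains wind around each other into a stiff helix. Fibrillar chains (types I, II, III, V, XI, XXIV and XXVII) pack into fibrils, type IV chains form the sheet-like network of basement membranes, and the remaining types decorate fibrils, anchor membranes or span the cell surface. In liver, hepatic stellate cells and portal fibroblasts are the main source of types I and III, and the space between sinusoidal endothelium and hepatocytes holds type IV without a dense basement membrane. Collagen deposition by activated stellate cells, under control of TGF-beta, is the hallmark of liver fibrosis.

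Signals were log2 summaries that the authors deposited, with array medians from 4.88 to 4.91 and lower quartiles from 3.4 to 3.47. Arrays correlated at 0.99 to 0.991 among Mir137-/- mice, 0.993 to 0.994 among Mir137+/+ mice and 0.982 to 0.988 between genotypes. The hepatocyte marker Alb (albumin) read 13.71 to 13.74 on Mir137-/- arrays and 13.73 to 13.79 on Mir137+/+ arrays. Some arrays stood apart in transcripts of other tissues. Replicate 1 of Mir137-/- carried skeletal muscle transcripts, with 18 markers at a median of 3.01 above the Mir137+/+ mean, and Acta1 (skeletal actin) at 11.38 there against 4.68 to 5.84 elsewhere. Replicate 2 of both genotypes carried exocrine pancreas transcripts, whose 14 markers deviated by a median of 2.65 on the Mir137-/- array and 1.62 on the Mir137+/+ array, and by -0.91 to -0.67 on the other 4. The X-inactivation transcript Xist read 3.66 to 4.24 on the Mir137-/- arrays and on Mir137+/+ replicate 1, but 10.91 and 10.81 on Mir137+/+ replicates 2 and 3, where the Y-linked Eif2s3y read 2.06 and 2.51. Sex was thus unequal between the genotypes. A fit with a term for sex compares the Mir137-/- arrays with Mir137+/+ replicate 1 alone.

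Across the family, the collagen chains of Mir137-/- livers lay close to those of Mir137+/+ livers. The median difference of the 42 chains, Mir137-/- minus Mir137+/+, was 0.02 on the log2 scale, beside 0 over all genes. It was 0.20 for the fibrillar chains, -0.12 for the type IV chains and 0.05 for the other types. The fibrillar median was not stable, at 0.06 to 0.27 on leaving out single arrays (lowest without Mir137-/- replicate 1), 0.04 without both pancreas arrays and -0.02 after dropping dim probe sets. A gene was called when limma gave a Benjamini-Hochberg adjusted p below 0.05 over all genes together with a change of more than 1.5-fold. None of the 42 chains was called higher in Mir137-/- livers, where 2.34% of all genes were, and 1 chain, Col4a3, was called lower, where 3.34% of all genes were. Calls in either direction made up 5.67% of all genes. By the adjusted p alone, which 12% of all genes passed, 3 chains passed: Col4a3, lower, and the fibrillar Col5a3 and Col27a1, higher but under 1.5-fold. An unadjusted p below 0.05 was reached by 7 of the 42, of which 2 were higher and 5 lower, beside 26.8% of all genes. With unadjusted p and the same fold threshold, neither limma nor the methods' t-test called a chain higher.

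**Figure D1:**
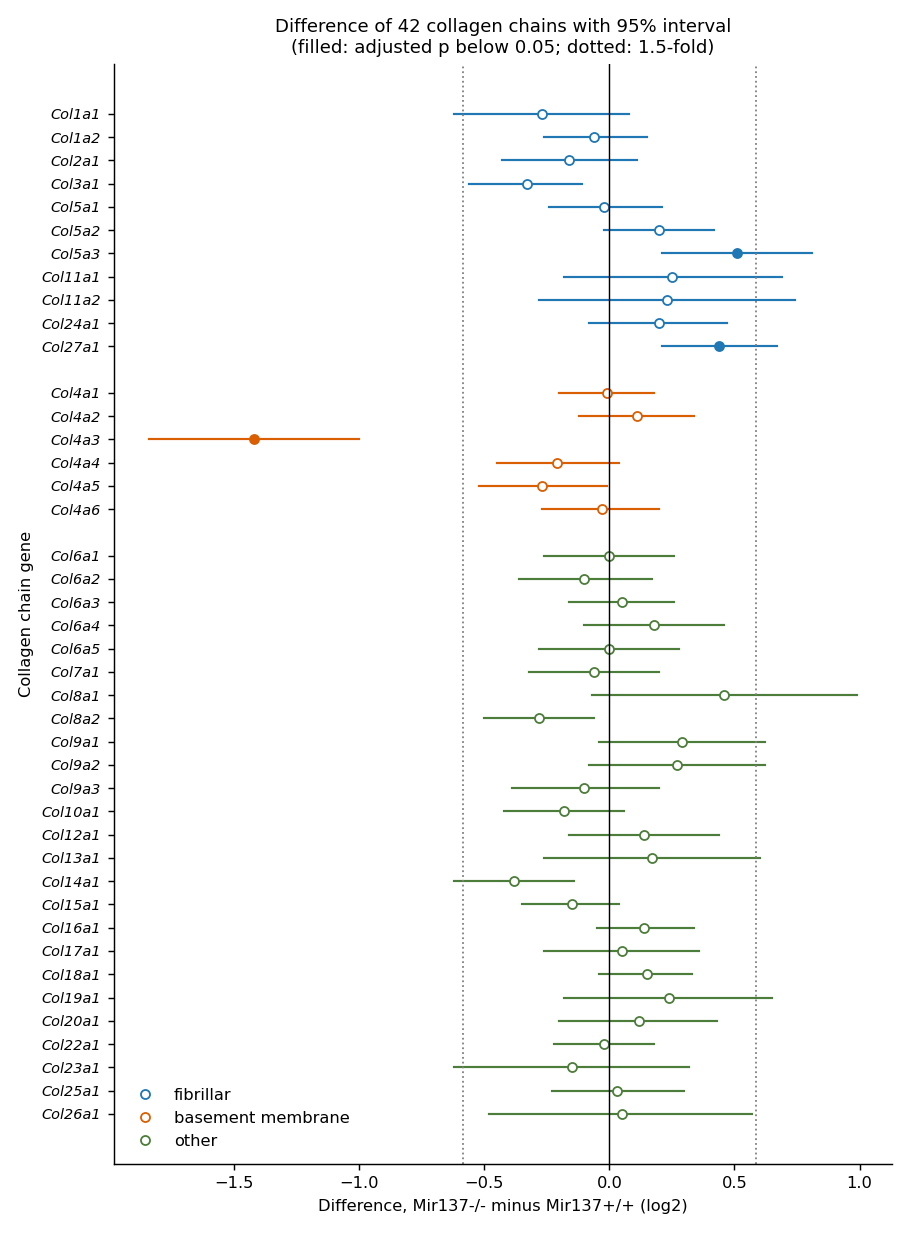
Difference between Mir137-/- and Mir137+/+ livers (log2, horizontal axis) for each of the 42 collagen chain genes, grouped by class, with the 95% interval of the fit (n = 3 arrays per genotype). Col4a3 at -1.42 lies far to the left of the others, which all fall between -0.38 and 0.51.

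The 3 arrays of a genotype did not overlap those of the other for 11 chains, beside 32.3% of all genes. In 6 of them every Mir137-/- array was above every Mir137+/+ array (Col5a2, Col5a3, Col24a1, Col27a1, Col16a1, Col18a1), and in 5 every one was below (Col3a1, Col4a3, Col8a2, Col14a1, Col15a1). The other 31 overlapped. In whole liver, fewer collagen-making cells and less collagen mRNA per cell cannot be told apart.

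Among the type IV chains, Col4a3 had the largest difference. These chains are encoded in head-to-head gene pairs, and in the RefSeq gene table Col4a1 lay beside Col4a2, Col4a3 beside Col4a4, and Col4a5 beside Col4a6. Col4a1 and Col4a2 make the network found in nearly all basement membranes. Col4a3, Col4a4 and Col4a5 together make the network of the kidney filter, and mutations in them cause Alport syndrome. Col4a6 pairs with Col4a5 in the membranes of smooth muscle and some epithelia.

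Col4a3 was lower in Mir137-/- livers. Its log2 signal was 3.78, 3.39 and 3.20 on the Mir137-/- arrays, against 5.10, 4.58 and 4.96 on the Mir137+/+ arrays. The groups were apart by more than the spread within either, and the Mir137-/- values lay near the lower quartile of the arrays. The means were 3.46 ± 0.30 in Mir137-/- livers and 4.88 ± 0.27 in Mir137+/+ livers (SD, n = 3 each). The difference was -1.42 (SE 0.18, 95% interval -1.84 to -1), or 0.373 of the Mir137+/+ level, with an adjusted p of 0.00292 in limma. No detection calls were used, and whether the Mir137-/- signal lay above background was not tested.

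A second probe set gave Col4a3 the same direction. It read 3.59, 3.36 and 3.35 on the Mir137-/- arrays and 4.59, 4.03 and 4.18 on the Mir137+/+ arrays. These groups did not overlap either, and the difference of -0.83 was called in limma over all probe sets (adjusted p = 0.0147), where 4.52% of probe sets were called. With a term for sex the difference of Col4a3 was -1.64 (adjusted p = 0.0303), without the 2 pancreas arrays it was -1.54 (adjusted p = 0.0326), and without the muscle array it was -1.58 (adjusted p = 0.00359). By the methods' t-test the adjusted p was 0.057, so the call was lost there.

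The partner gene Col4a4 depended on the probe set. The one with the highest signal read 4.84, 5.03 and 4.88 on the Mir137-/- arrays and 5.18, 5.23 and 4.96 on the Mir137+/+ arrays, which overlapped (difference -0.21, SE 0.10, adjusted p = 0.257 in limma). A dimmer one read 3.97, 3.75 and 3.86 on the Mir137-/- arrays and 4.47, 4.38 and 4.50 on the Mir137+/+ arrays. Here the groups were apart, and the difference of -0.59 was called over all probe sets (adjusted p = 0.0101 in limma). The last probe set, near the bottom of the range, differed by -0.11. Which of them follows the Col4a4 transcript best is not given in the sources used here.

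The ubiquitous pair showed no such change. Col4a1 read 9.82, 9.95 and 9.86 on the Mir137-/- arrays, against 9.87, 9.86 and 9.93 on the Mir137+/+ arrays. The groups lay within each other, and the difference of -0.01 had a 95% interval from -0.20 to 0.18. Col4a2 read 8.82, 8.95 and 8.68 in Mir137-/- livers and 8.62, 8.72 and 8.77 in Mir137+/+ livers, a difference of 0.11 (SE 0.10, adjusted p = 0.526 in limma). The second Col4a1 probe set differed by -0.02.

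The X-linked pair overlapped between genotypes as well. Col4a5 read 7.15, 7.04 and 7.20 on the Mir137-/- arrays and 7.51, 7.49 and 7.19 on the Mir137+/+ arrays, so that Mir137+/+ replicate 3 sat among the Mir137-/- values. The difference of -0.27 did not pass (SE 0.11, adjusted p = 0.172 in limma). It was -0.38 with a term for sex (adjusted p = 0.3) and -0.17 without both pancreas arrays, and the other probe set differed by 0.02. Col4a6 read 5.61, 5.61 and 5.59 in Mir137-/- livers and 5.64, 5.47 and 5.80 in Mir137+/+ livers, a difference of -0.03.

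**Figure D2:**
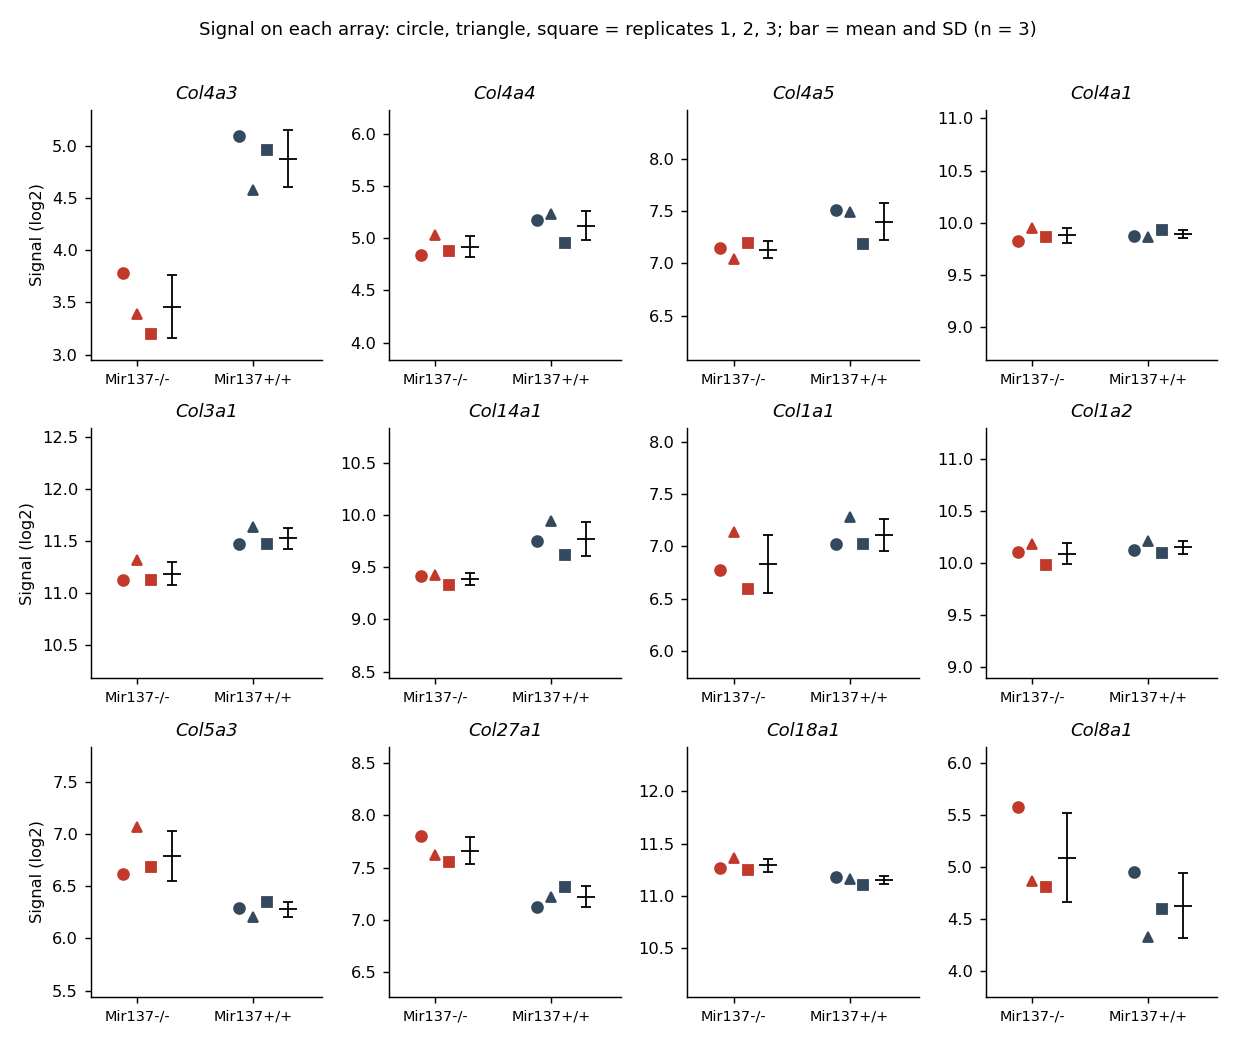
Log2 signal of 12 collagen chains on each array, Mir137-/- left of Mir137+/+, with the mean and SD beside the points (n = 3 each). Each vertical axis spans the same log2 range. The 2 groups are far apart for Col4a3, narrowly apart for Col3a1, Col14a1, Col5a3, Col27a1 and Col18a1, and overlapping for the rest.

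Among the fibrillar chains, the minor chains Col5a3 and Col27a1 were higher in Mir137-/- livers by the adjusted p, under the fold threshold, and the main chains of liver fibrils did not pass. Col1a1 and Col1a2 encode the chains of type I collagen. Col1a1 read 6.77, 7.14 and 6.59 on the Mir137-/- arrays and 7.02, 7.28 and 7.02 on the Mir137+/+ arrays. In each genotype the highest value was that of replicate 2, the array with pancreas transcripts, and the part of those transcripts in it was not tested. The groups overlapped (difference -0.27, SE 0.15, adjusted p = 0.3 in limma). The difference ran from -0.43 to -0.15 on leaving out single arrays, was -0.34 without both pancreas arrays and -0.19 with a term for sex. A second Col1a1 probe set of nearly the same signal (means 6.88 in Mir137-/- and 7.05 in Mir137+/+ livers) differed by -0.17 (SE 0.24) and also overlapped. Col1a2 read 10.11, 10.18 and 9.98 in Mir137-/- livers and 10.13, 10.21 and 10.10 in Mir137+/+ livers, and its difference of -0.06 had a 95% interval from -0.26 to 0.15.

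Col3a1, the single chain of type III collagen, read 11.13, 11.32 and 11.13 on the Mir137-/- arrays, against 11.47, 11.64 and 11.47 on the Mir137+/+ arrays. Every Mir137-/- array was below every Mir137+/+ array, yet the difference of -0.33 (SE 0.10) had an adjusted p of 0.0647 in limma, which misses the threshold. Over 19 alternative settings the adjusted p ran from 0.00845 to 0.412 and was below 0.05 in 3, with the highest for the term for sex. A second probe set of Col3a1 differed by -0.41, and its groups did not overlap either.

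Type V collagen sits inside type I fibrils and sets their width. Its chain Col5a1 read 7.99, 8.10 and 7.98 on the Mir137-/- arrays and 7.99, 8.19 and 7.94 on the Mir137+/+ arrays, with no separation (difference -0.02), while its other probe sets differed by 0.30 and 0.21. Col5a2 read 8.13, 8.06 and 7.91 in Mir137-/- livers and 7.88, 7.88 and 7.73 in Mir137+/+ livers, just apart, with a difference of 0.20 (adjusted p = 0.224 in limma). Col5a3 read 6.62, 7.07 and 6.69 on the Mir137-/- arrays, against 6.29, 6.21 and 6.35 on the Mir137+/+ arrays. All Mir137-/- values of Col5a3 were above, most clearly that of the pancreas array, whose part in it was not tested. Its difference of 0.51 (SE 0.13, 1.42-fold) had an adjusted p of 0.0405 in limma. Without both pancreas arrays the difference of Col5a3 was 0.34 (adjusted p = 0.162), without Mir137-/- replicate 1 it was 0.60 and was called (adjusted p = 0.0434). Its adjusted p was below 0.05 under 8 of 19 alternative settings, and among the others it was 0.142 with the methods' t-test and 0.272 with a term for sex. It was 0.0577 to 0.132 on leaving out any of the other 5 arrays. A second, dim probe set of Col5a3 differed by 0.04.

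Col27a1 encodes a fibrillar chain known from cartilage growth. It read 7.80, 7.62 and 7.55 on the Mir137-/- arrays, against 7.12, 7.22 and 7.31 on the Mir137+/+ arrays. The groups did not overlap, and the difference was 0.44 (SE 0.10, 1.36-fold, adjusted p = 0.0293 in limma). A second probe set of Col27a1 differed by the same 0.44 and was also apart. Its adjusted p was below 0.05 under 9 of 19 alternative settings and reached 0.151 without both pancreas arrays, where the difference was 0.46. It was 0.127 with a term for sex, where the difference was 0.54. The cartilage chains Col2a1, Col11a1 and Col11a2 and the bone-associated Col24a1 were dim, and their differences lay between -0.16 and 0.25 with none near the threshold. Col11a1 and Col24a1 lie on the chromosome of Mir137, and the part of strain sequence in their readings was not tested.

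Col3a1 is shown with the 250 bases before its RefSeq start in GRCm38.p6 (chr1:45311288-45311537, plus strand, read 5′ to 3′), as the main fibrillar chain whose groups did not overlap. Capitals mark exact matches on either strand to the letters of a TATA box, TATAAA, of a CCAAT box, or of a GC box, which reads GGGCGG. Its window held 1 TATA box match and none of the others. Of 32851 windows of this length before a listed start of any gene, 12.4% held a TATA box, 33.8% a CCAAT box and 32.7% a GC box, and of 36 windows for the 33 collagen chains with an entry, 5, 13 and 21 held them in the same order. A listed start can lie inside the span of a gene that has several. A match of letters is not a binding site.
Col3a1: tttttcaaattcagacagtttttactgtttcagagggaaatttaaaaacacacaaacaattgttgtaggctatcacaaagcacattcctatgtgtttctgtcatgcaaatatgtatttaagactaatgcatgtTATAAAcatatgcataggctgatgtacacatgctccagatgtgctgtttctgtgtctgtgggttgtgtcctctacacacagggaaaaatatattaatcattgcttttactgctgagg

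The other 25 chains held no call, and their differences lay between -0.38 and 0.46. Fibril-associated collagens sit on the surface of fibrils, and Col14a1, which is known from dense connective tissue and portal tracts, had the largest difference among all these types except Col8a1. It read 9.42, 9.43 and 9.33 on the Mir137-/- arrays, against 9.75, 9.94 and 9.62 on the Mir137+/+ arrays. All Mir137-/- values of Col14a1 were below, with a difference of -0.38 (SE 0.10) and an adjusted p of 0.0536 in limma. A second probe set of Col14a1 differed by -0.53, with the groups apart. Its adjusted p was 0.0285 over all probe sets in limma, under the fold threshold. The dimmest probe set differed by -0.31. Over 19 alternative settings the adjusted p of Col14a1 was below 0.05 in 3, the lowest being 0.0105. Col12a1, Col16a1 and Col9a1, of the same subclass, differed by 0.14, 0.14 and 0.29 and did not pass.

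Type VI collagen forms beaded filaments around cells. Col6a3 read 8.51, 8.53 and 8.32 on the Mir137-/- arrays and 8.36, 8.47 and 8.38 on the Mir137+/+ arrays. Col6a1 read 7.29, 7.62 and 7.28 in Mir137-/- livers and 7.45, 7.38 and 7.36 in Mir137+/+ livers, and Col6a2 read 7.85, 8.04 and 7.67 in Mir137-/- livers and 7.89, 8.07 and 7.89 in Mir137+/+ livers. These type VI chains overlapped between genotypes, with differences of 0.05 for Col6a3, 0 for Col6a1 and -0.10 for Col6a2.

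Type XVIII collagen, whose cleaved end is endostatin, is made in liver by hepatocytes. Col18a1 read 11.27, 11.36 and 11.25 on the Mir137-/- arrays, against 11.18, 11.16 and 11.10 on the Mir137+/+ arrays. The groups were just apart, with a difference of 0.15 (SE 0.08, adjusted p = 0.3 in limma) and of 0.30 by the other probe set. Its relative Col15a1 went the other way by the same size, -0.15, at a low signal.

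Col8a1, a network-forming chain of vessel walls, had the largest positive difference among these types, and it rested in part on 1 array. It read 5.58, 4.87 and 4.81 in Mir137-/- livers and 4.95, 4.33 and 4.60 in Mir137+/+ livers. The highest value came from Mir137-/- replicate 1, the array with skeletal muscle transcripts, whose part in it was not tested. The difference of Col8a1 was 0.46 (SE 0.23, adjusted p = 0.254 in limma), 0.21 without that array and 0.14 with a term for sex. Col8a2 differed by -0.28 and the hypertrophic cartilage chain Col10a1 by -0.18, both at low signal. The transmembrane chains Col13a1 and Col25a1 differed by 0.17 and 0.03. Col25a1 lies on the chromosome of Mir137, and the part of strain sequence in its readings was not tested. A dimmer probe set of Col25a1, below the lower quartile on all arrays, read 3.09, 3.04 and 3.12 on the Mir137-/- arrays and 2.65, 2.19 and 2.49 on the Mir137+/+ arrays, and its difference of 0.64 was called over all probe sets (adjusted p = 0.0202 in limma). The remaining 11 chains (Col6a4, Col6a5, Col7a1, Col9a2, Col9a3, Col17a1, Col19a1, Col20a1, Col22a1, Col23a1, Col26a1) differed by -0.15 to 0.27, and none passed. A dimmer probe set of Col9a3 differed by -0.50, with the groups apart. Its adjusted p was 0.0409 over all probe sets in limma, under the fold threshold.

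Of the 42 chains, 27 had several probe sets, which gave 40 further readings. Of these, 30 had the sign of the probe set used and 10 had the opposite sign or a difference of 0, while 19 of the 40 were below the lower quartile on all 6 arrays. Over all 82 collagen probe sets, 1 was called higher and 3 lower, in the genes Col25a1, Col4a3 and Col4a4, beside 4.52% of all probe sets called in either direction.

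**Figure D3:**
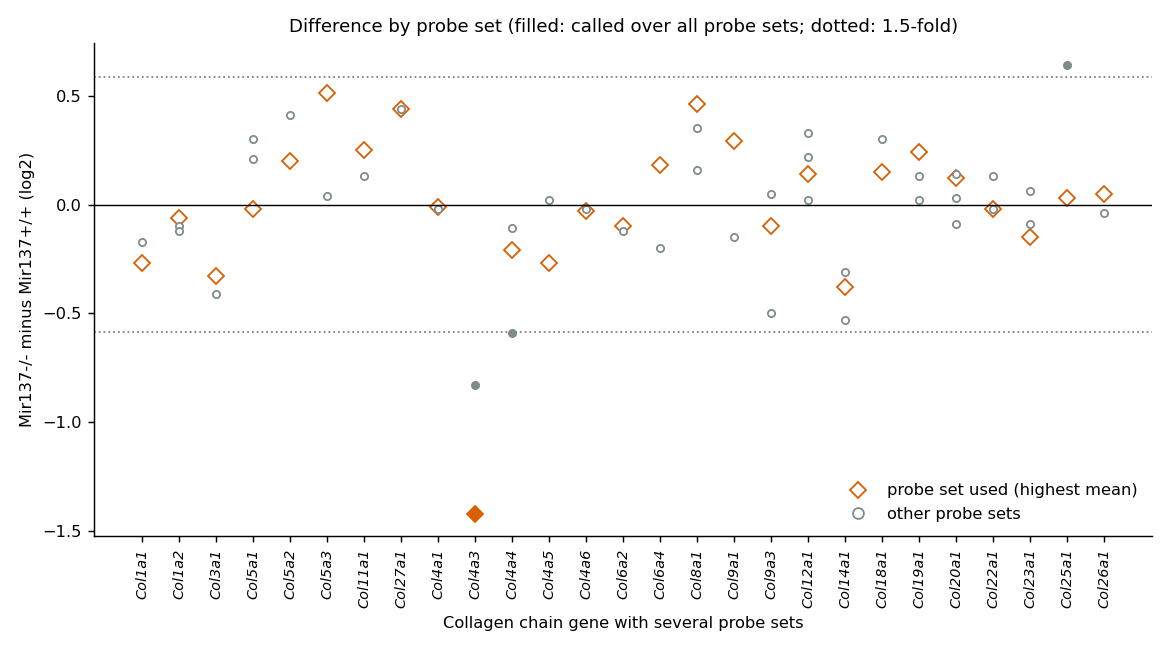
Difference between Mir137-/- and Mir137+/+ livers (log2, vertical axis) for each probe set of the 27 collagen chains that had several. Both Col4a3 probe sets are called lower, whereas single other probe sets are called for Col4a4 (lower) and Col25a1 (higher).

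Genes that build collagen were read from lists of fixed membership. Over all genes the median difference was 0, with 2.34% called higher and 3.34% called lower. Chains are hydroxylated and folded in the endoplasmic reticulum, and of 21 measured genes of that step 1 was called higher and none lower (median difference -0.01). It was P3h4, a partner of the lysyl hydroxylase complex, with 6.12, 6.40 and 5.84 on the Mir137-/- arrays against 5.28, 5.41 and 5.46 on the Mir137+/+ arrays. The groups were apart, with a difference of 0.74 (adjusted p = 0.0166 in limma). The call was lost without Mir137+/+ replicate 1 (0.68, adjusted p = 0.062) or replicate 2 (0.75, adjusted p = 0.0558) and without both pancreas arrays (0.61, adjusted p = 0.0921), with the methods' t-test (adjusted p = 0.0996) and with a term for sex (0.84, adjusted p = 0.107). Crtap, of the prolyl 3-hydroxylase complex, differed by 0.46 (adjusted p = 0.0217), under the fold threshold.

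Once secreted, procollagen is trimmed and cross-linked. Of 14 measured genes of that step 1 was called higher and none lower (median -0.01), beside 2.34% and 3.34% of all genes. Pcolce2, an enhancer of the enzyme that removes the C-terminal propeptide, read 7.08, 7.15 and 7.22 on the Mir137-/- arrays, against 6.03, 6.12 and 6.29 on the Mir137+/+ arrays. The groups lay well apart, with a difference of 1.0 (SE 0.10, adjusted p = 0.00119 in limma), and it was called under all 19 alternative settings. Its paralogue Pcolce pointed the other way, with 7.79, 8.13 and 8.03 in Mir137-/- livers and 8.42, 8.72 and 8.50 in Mir137+/+ livers, a difference of -0.56 (adjusted p = 0.0245) just under the fold threshold.

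Small leucine-rich proteoglycans bind fibrils and govern their spacing. Of 11 measured, 8 had a negative difference (median -0.29, beside 0 over all genes). In this list 1 was called, lower, where 3.34% of all genes were. Ogn (osteoglycin) read 5.48, 5.34 and 5.0 on the Mir137-/- arrays, against 5.72, 5.97 and 5.92 on the Mir137+/+ arrays. These groups were apart, but the difference of -0.60 (adjusted p = 0.0307 in limma) lay at the fold threshold and was called under 10 of 19 alternative settings. It was lost on leaving out any array but Mir137-/- replicate 1, with an adjusted p of 0.0501 to 0.107. Lum (lumican) read 8.85, 8.61 and 8.71 in Mir137-/- livers and 9.21, 9.29 and 9.20 in Mir137+/+ livers, a difference of -0.51 (adjusted p = 0.0127), under the fold threshold.

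Basement membrane proteins other than collagen had a median difference of 0.24 over 14 measured genes, beside 0 over all genes. Of these 14, 2 were called higher and none lower, beside 2.34% and 3.34% of all genes. Lamb3, a laminin chain of epithelia, read 5.62, 5.79 and 5.41 on the Mir137-/- arrays, against 4.03, 4.36 and 4.34 on the Mir137+/+ arrays. The groups lay far apart, with a difference of 1.36 (SE 0.13, adjusted p = 0.00121 in limma), and Lamb3 was called under all 19 alternative settings. Lamb2, a laminin chain of vessels and nerve endings, differed by 0.61 (adjusted p = 0.00799), and its call was lost without Mir137-/- replicate 2 (0.55) or Mir137+/+ replicate 1 (0.56), where it came under the fold threshold, and also without both pancreas arrays (0.60, adjusted p = 0.0535) and with a term for sex (0.71, adjusted p = 0.0577).

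Among 11 measured collagen receptors 2 were called higher and none lower (median -0.08), beside 2.34% and 3.34% of all genes. Adgrg1, an adhesion receptor that binds type III collagen, read 6.93, 6.66 and 6.64 on the Mir137-/- arrays and 6.12, 5.87 and 5.83 on the Mir137+/+ arrays. It was apart in all 6 (difference 0.80, adjusted p = 0.00566 in limma), and the call was lost without both pancreas arrays (adjusted p = 0.0647), with the methods' t-test (adjusted p = 0.057) and with a term for sex (0.62, adjusted p = 0.105). Adgrg6, which binds type IV collagen, differed by 0.82 (adjusted p = 0.0248). Its call was kept only on leaving out Mir137-/- replicate 3 among the single arrays, and it was called under 9 of 19 alternative settings, with an adjusted p of up to 0.279. Itga1, an integrin chain that binds type IV among other collagens, differed by -0.39 (adjusted p = 0.0233), under the fold threshold.

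No gene was called among 17 measured genes of collagen breakdown and its inhibitors (median 0.21), of which 4 had an adjusted p below 0.05 in limma, 2 higher and 2 lower, beside 12% of all genes, and 9 an unadjusted p below 0.05, beside 26.8%. The gelatinase Mmp9 read 4.77, 4.65 and 4.70 on the Mir137-/- arrays and 4.99, 5.10 and 5.16 on the Mir137+/+ arrays, a difference of -0.38. The inhibitor Timp3 read 7.23, 7.50 and 7.19 in Mir137-/- livers and 6.94, 6.82 and 6.75 in Mir137+/+ livers, a difference of 0.47. Both were apart between genotypes, though under the fold threshold.

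Of 23 measured TGF-beta ligands, receptors and targets 1 was called higher and 1 lower (median 0.05), beside 2.34% and 3.34% of all genes. Ccn2 (connective tissue growth factor), which TGF-beta and YAP induce, read 7.11, 7.25 and 7.15 on the Mir137-/- arrays, against 8.04, 7.97 and 7.97 on the Mir137+/+ arrays. Its groups lay well apart, with a difference of -0.82 (adjusted p = 0.00128 in limma). Id1, a target of BMP and TGF-beta signals, read 8.11, 8.39 and 8.10 in Mir137-/- livers and 7.30, 7.45 and 7.44 in Mir137+/+ livers, a difference of 0.80 (adjusted p = 0.0035). Both Ccn2 and Id1 were called under all 19 alternative settings.

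**Figure D4:**
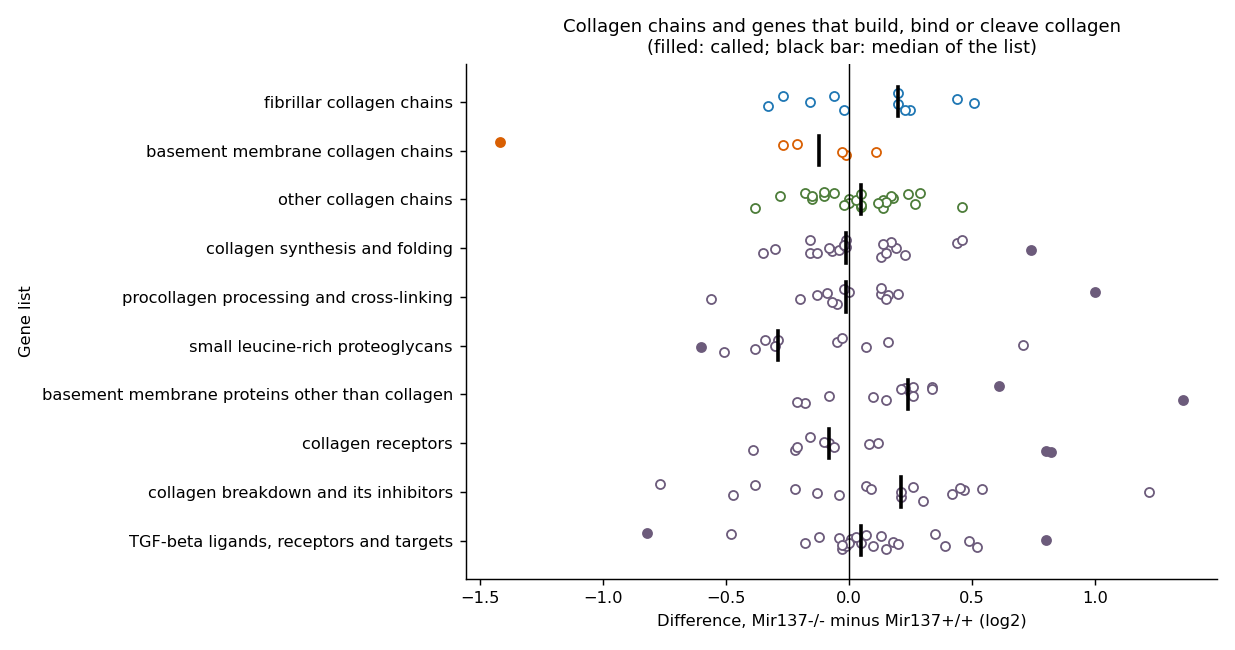
Difference between Mir137-/- and Mir137+/+ livers (log2, horizontal axis) for each gene of the 3 collagen classes and of 7 lists of genes that build, bind or cleave collagen, with the list median as a black bar. Filled points are called, and among the collagen chains only Col4a3 is.

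Markers of the cells that make or surround collagen were read on the same arrays, where 2.34% of all genes were called higher and 3.34% lower. Of 15 markers of hepatic stellate cells and fibroblasts, 1 was called higher (Rgs5, a pericyte gene) and 1 lower (Lrat, which esterifies retinol for storage), and on single arrays their median deviation from the Mir137+/+ mean was 0.12 to 0.15 on Mir137-/- arrays and -0.03 to 0.07 on Mir137+/+ arrays. Of 13 portal fibroblast and mesothelial markers 1 was called higher (Fbln2) and none lower. None was called in limma among 15 endothelial, 6 cholangiocyte, 11 Kupffer cell, 8 hepatocyte or 8 smooth muscle markers. Differences were positive for 12 of the 15 stellate cell and fibroblast markers and 11 of the 13 portal markers (medians 0.11 and 0.15, beside 0 over all genes). An unadjusted p below 0.05 in limma was reached by 26.8% of all genes. It was found for 4 stellate cell and fibroblast (3 higher, 1 lower) and 4 portal markers (all higher). Among the rest it was found for 7 endothelial (6 higher, 1 lower), 2 cholangiocyte (1 higher, 1 lower) and 3 Kupffer cell markers (all higher). The same held for 2 hepatocyte markers (both lower) and 1 smooth muscle marker (higher). Of the endothelial markers, 3 passed the adjusted p, all higher and under the fold threshold. Lhx2 of the stellate list (0.40, adjusted p = 0.0356 in limma) and Msln of the portal list (0.37, adjusted p = 0.0412) did so too. Of 10 markers of cartilage and bone, 1 was called, lower (Hapln1). It was dim, with 2.35, 2.54 and 2.46 on the Mir137-/- arrays and 2.85, 3.16 and 3.54 on the Mir137+/+ arrays. All but the last of these values lay below the lower quartile of the arrays. Neither the 18 muscle nor the 14 pancreas markers held a call or an unadjusted p below 0.05, and each set was high on the arrays named above. Against these, the median deviation of the fibrillar chains stayed within -0.01 to 0.11 on Mir137-/- arrays and -0.06 to 0.06 on Mir137+/+ arrays, and that of the type IV chains within -0.16 to -0.06 on Mir137-/- arrays and 0 to 0.05 on Mir137+/+ arrays. The part of these cell markers in the collagen values was not tested.

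**Figure D5:**
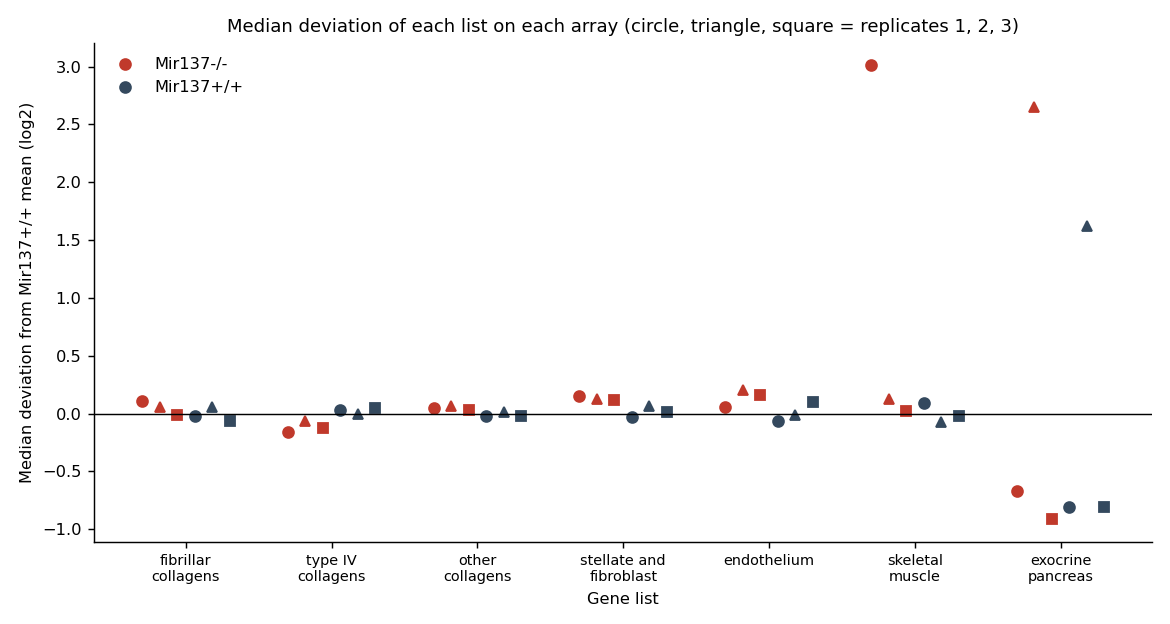
Median deviation from the Mir137+/+ mean (log2, vertical axis) of the collagen classes and of 4 marker lists on each array, Mir137-/- left of Mir137+/+. The collagen classes stay within -0.16 to 0.11 on all arrays, while skeletal muscle markers stand at 3.01 on Mir137-/- replicate 1 and pancreas markers at 2.65 and 1.62 on the replicate 2 arrays.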

How the data were processed

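Liver RNA of 3 Mir137-/- and 3 Mir137+/+ mice was hybridised to whole-genome Affymetrix mouse expression arrays, 1 mouse per array, with genotype taken from the sample labels. The authors deposited log2 summaries for 45101 probe sets. The labels name GCRMA with no version, whereas the methods name RMA with a baseline step. The deposited log2 values were levels, not centred per probe set, and were used as they were. The 64 control probe sets were left out. Of the remaining 45037, 34945 had 1 gene symbol in the platform annotation, 932 had several and 9160 had none. GCRMA lowers dim probe sets strongly, so changes near the floor depend on its background model.

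Differences were fitted on all 18193 genes, 1 probe set per gene, in limma 3.58.1 under R 4.3.3, as 2 group means without covariates. A call needed a Benjamini-Hochberg adjusted p below 0.05 over all genes and a change of more than 1.5-fold. SE, intervals (95%) and two-sided p come from that fit, which was checked on simulated data. With 3 against 3, an exact test cannot give a two-sided p below 0.1. The study's methods describe the thresholds used. Alternatives were the methods' t-test, unadjusted p, no fold threshold, trend and robust priors, quantile normalization, median centring, a filter that drops the dimmest 40% of probe sets, leaving out _s_at and _x_at probe sets, averaging a gene's probe sets, a replicate block and leaving out each array. A term for sex and leaving out the 2 pancreas arrays were added after seeing the data.

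Members, gene lists and marker lists were chosen with earlier results of these data known. Values on every array are given for called chains and, in each class, for the 3 with the highest mean and the 2 with the largest difference, and in each related list for called genes or the 2 with the smallest p. Other chains were added to show each type, after their values were seen, as were Crtap, Pcolce, Lum and Itga1. Of 248 list genes, 229 were measured, 1 under an updated symbol (Ccn2, listed as Ctgf). All 42 chains matched the RefSeq gene table (GRCm38.p6) by Entrez gene. Promoter windows were found for 33 chains, all but Col1a1, Col2a1, Col4a3, Col5a2, Col9a3, Col12a1, Col14a1, Col22a1 and Col26a1, and RefSeq sequences are credited to the same build.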

Additional observations from a re-analysis of the deposited data

How the results depend on the processing

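Col4a3 was the chain called lower under 17 of 18 alternatives that tested it. The count of chains called lower was 0 with the methods' t-test after adjustment, and 0 with the filter on dim probe sets, which dropped Col4a3 and kept 28 chains. The count called higher was 0 in the fit as reported, 2 with no fold threshold, and 0 to 1 on leaving out single arrays, the 1 being Col5a3 without Mir137-/- replicate 1. The fibrillar median of 0.20 became -0.02 with the dim filter, 0.04 without both pancreas arrays, and 0.06 to 0.27 on leaving out single arrays. The type IV median of -0.12 became -0.03 with the dim filter. The cause was not tested beyond the loss of chains that the filter itself brings.

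Some differences near 0 changed sign. The difference of Col5a1 (-0.02) was 0.02 with quantile normalization, 0.17 with the mean of all probe sets, 0.03 with the term for sex, 0.02 without both pancreas arrays and -0.07 to 0.06 on leaving out single arrays. That of Col4a1 (-0.01) was 0.03 with quantile normalization, 0.01 with the term for sex and -0.05 to 0.02 on leaving out single arrays. On leaving out single arrays, Col4a6 ran over -0.12 to 0.05 and Col25a1 over -0.03 to 0.13. Of 867 values for 46 genes under the alternatives, 810 kept direction and side of the threshold, 32 lost the call, 12 gained it and 13 changed sign.

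Same-numbered arrays deviated together weakly (correlations 0.10, 0.23 and 0.03), yet 4 of 6 arrays correlated best with their own number. These values do not settle whether the numbers mark pairs. The labels give only replicate numbers, so the main fit took no pairs, and a fit with a replicate block is set beside it. With the replicate block, 411 genes were called higher and 588 lower, against 425 and 607 without it. The block left the collagen counts at 0 higher and 1 lower, and the medians at 0.20, -0.12 and 0.05 for fibrillar, type IV and other chains, while Ogn lost its call (adjusted p = 0.0609 in limma). Col5a3 (adjusted p = 0.0745) and Col27a1 (adjusted p = 0.074) no longer passed by the adjusted p alone.

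Over all genes, 182 were called higher and 284 lower with the methods' t-test after adjustment, 184 and 259 with the term for sex, 228 and 390 without both pancreas arrays, and 921 and 1256 with no fold threshold. The 3 arrays per genotype and the lack of detection calls limit what can be said of the 19 chains whose mean lay below the array median.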
